A study of Homo sapiens with 16 samples.

Results

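Human HEK293T cells, a line derived from embryonic kidney, that carry a lentivector for histone H2A with the E92K substitution were compared with HEK293T cells that carry a lentivector for wild-type H2A. The comparison takes 8 of the 16 libraries of the series, all of total RNA: 4 labelled H2A(E92K) and 4 labelled H2A, each group numbered from replicate 1 to 4 and with DMSO in the sample titles, while the treatment field of the same samples lists no compound. The other libraries are wild-type H2A cells given JQ1 (1 µM, 3 h, 4 libraries), an inhibitor of BET bromodomain proteins, or pinometostat (2.5 µM, 24 h, 4 libraries), an inhibitor of the methyltransferase DOT1L, and they are used here only to set levels side by side. The sample field gives 2.5 µM for pinometostat, and the treatment text gives the same number in millimolar. Of 57500 genes in the files, 16610 had enough counts to be tested. All 12 control and drug libraries come from cells that also carry an H2A lentivector, so every group has an added H2A gene next to the cell's own H2A genes. The labels do not give the amount of H2A made from either vector, whether a line is 1 clone, or whether the replicates were separate cultures, and where they were not, a p-value here reflects the spread of technical repeats. The labels name no more than 1 line for each genotype, so the effect of the substitution and any other difference between the lines cannot be told apart.

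Histone H2A is 1 of the 4 core histones, and with H2B it forms a cluster of acidic residues on the face of the nucleosome, the acidic patch. Residue 92 of H2A is a glutamate of that patch, and E92K puts a lysine there, so that a negative charge becomes a positive one. Chromatin proteins such as remodellers, the Polycomb ubiquitin ligase with RNF2 and BMI1, and DOT1L touch the patch through basic side chains. Most replication-dependent H2A genes are small and lack introns, and they encode nearly the same protein from many copies. The gene model of HIST1H2AC in the files spans 26124145 to 26139116 on chromosome 6 with 1668 exonic bases. Its counts can therefore include spliced transcripts.

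The coding sequence around residue 92 is shown because it is the site that the label names. Codons were counted from the residue after the initiator methionine in the GENCODE 29 transcripts, the codon of residue 92 is in capitals, and all 9 of the 9 H2A genes tested hold a glutamate codon there, GAA or GAG. These are reference sequences of the cell's own genes, and the vector's sequence was not used here.
HIST2H2AA4: atccgcaacgacgagGAActgaacaagctg
HIST2H2AC: atccgcaacgacgagGAActgaacaagctg
HIST3H2A: atccgcaacgacgagGAGctcaacaagctg
HIST1H2AC: atccgcaacgacgagGAGctcaacaaactg
HIST1H2AI: atccgcaacgatgagGAGctcaacaagctt
HIST2H2AA3 has the same stretch as HIST2H2AA4, and in all the genes shown the neighbours of the codon are nearly alike.

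The E92K libraries held 22372028 to 25657327 counts and the H2A libraries 24003378 to 27599686. E92K replicate 4 stood apart from the other libraries: it lay at 57.3 on the first principal component (37.1% of the variance), and the others lay from -18.4 to 6.85. The second component (22.2%) put H2A replicate 4, at -17.1, beside E92K replicates 1 and 2, at -25 and -20, and E92K replicate 3, at 16.2, beside H2A replicates 1 and 2, at 25.6 and 15.1. The mitochondrial share of counts was 3.95%, 3.66%, 3.84% and 4.02% in the H2A libraries and 4.19%, 3.77%, 4.95% and 7.45% in the E92K libraries. The means were 3.87% ± 0.16 (SD, n = 4) and 5.09% ± 1.65 (SD, n = 4), with an exact two-sided permutation p of 0.143. Without E92K replicate 4 the E92K mean was 4.30% ± 0.599 (SD, n = 3; exact permutation p = 0.2). Without E92K replicate 2, the E92K library with the lowest share, the difference was 1.66 percentage points. No p is given for that value, because leaving out a library picked by its low share separates the groups by choice. GC-rich genes (top quartile) minus GC-poor genes (bottom quartile), as deviations from the gene means on the log2 scale, stood at 0.241, 0.169, 0.11 and -0.0853 in the H2A libraries and at -0.258, -0.28, 0.02 and 0.0832 in the E92K libraries. Since each of these measures differs among the libraries and in part between the group means, several results are given with and without E92K replicate 4. Where no value without it is given, the result includes that library. The part that RNA quality or GC content has in any result was not tested beyond the values given.

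**Figure D1:**
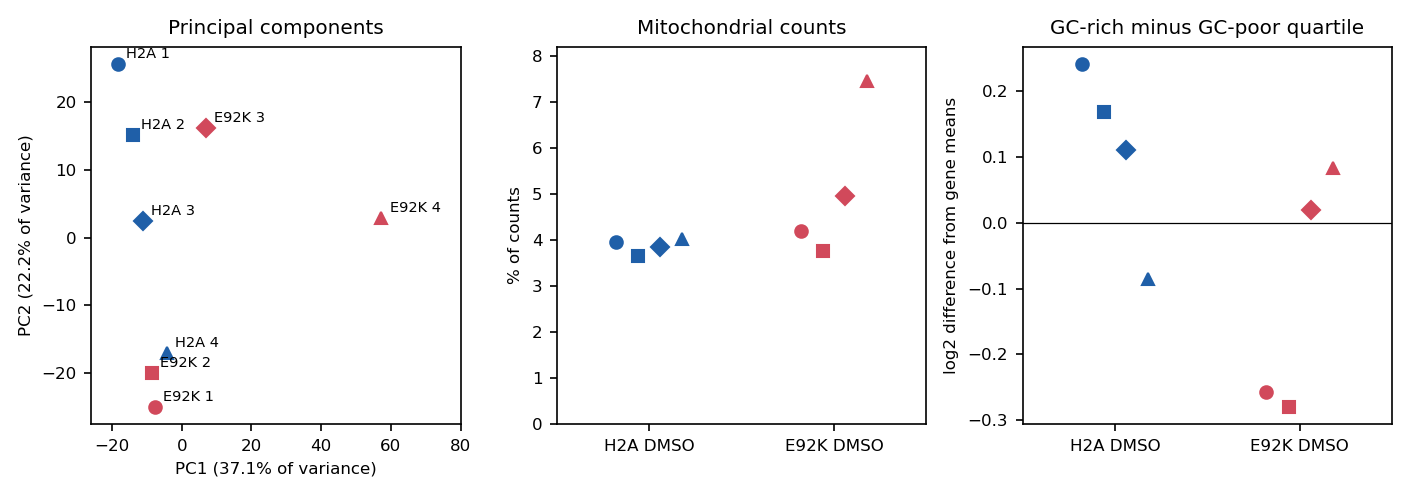
The 8 libraries by principal component, mitochondrial share of counts (%) and GC contrast (log2), with blue for H2A, red for E92K and circle, square, diamond and triangle for replicates 1 to 4. E92K replicate 4 is alone at the right of the first panel and highest in mitochondrial share (7.45%), and in the third panel the lowest values are those of E92K replicates 1 and 2.

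Across all genes, no gene differed between E92K and wild-type H2A cells past the adjusted threshold. By edgeR's quasi-likelihood test with Benjamini-Hochberg adjustment, 0 of 16610 genes (0%) had an adjusted p below 0.05, and the smallest adjusted p was 0.175, for MIR17HG. At an unadjusted p below 0.05 there were 1683 genes (10.1%), 846 higher (5.09%) and 837 lower (5.04%) in E92K cells. The 4 E92K values lay above all 4 H2A values for 375 genes (2.26%) and below them for 470 genes (2.83%), and the 3 E92K values other than replicate 4 did so for 610 (3.67%) and 716 genes (4.31%). Fold changes were small: the median size over all genes was 0.1516 on the log2 scale, and 92 genes had a size of at least 1. In such bulk libraries a lower level of a transcript in each cell and fewer cells that make it cannot be told apart. Without E92K replicate 4, 0 of 16816 genes passed, with 1353 (8.05%) at an unadjusted p below 0.05, 614 of them higher (3.65%) and 739 lower (4.39%). Of these, 960 were among the 1683 (57.0% of the longer list and 71.0% of the shorter), and all 960 had the same sign.

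Other tools called some genes on the same counts. DESeq2 called 4 genes (0.0241%) at an adjusted p below 0.05: MIR17HG was higher, and HIST2H2AA4, PCDH19 and SLIT3 were lower in E92K cells. A limma-voom fit with library quality weights, chosen after seeing the data, called 749 genes (4.51%), 288 higher and 461 lower, whereas limma-voom without the weights called 0, with 1646 at an unadjusted p below 0.05. Without H2A replicate 1 edgeR called 1 gene, MGP, which encodes matrix Gla protein, at an adjusted p of 0.0182. MGP stood at 0.0778 CPM (counts scaled to the size of each library) in H2A replicate 1, at 1.64, 1.55 and 2.09 in the other H2A libraries and at 0.298, 0.275, 0.258 and 0.28 in the E92K libraries, and it was too low to be tested in the 8-library fit. H2A replicate 1 was therefore below every E92K library for this gene.

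**Figure D2:**
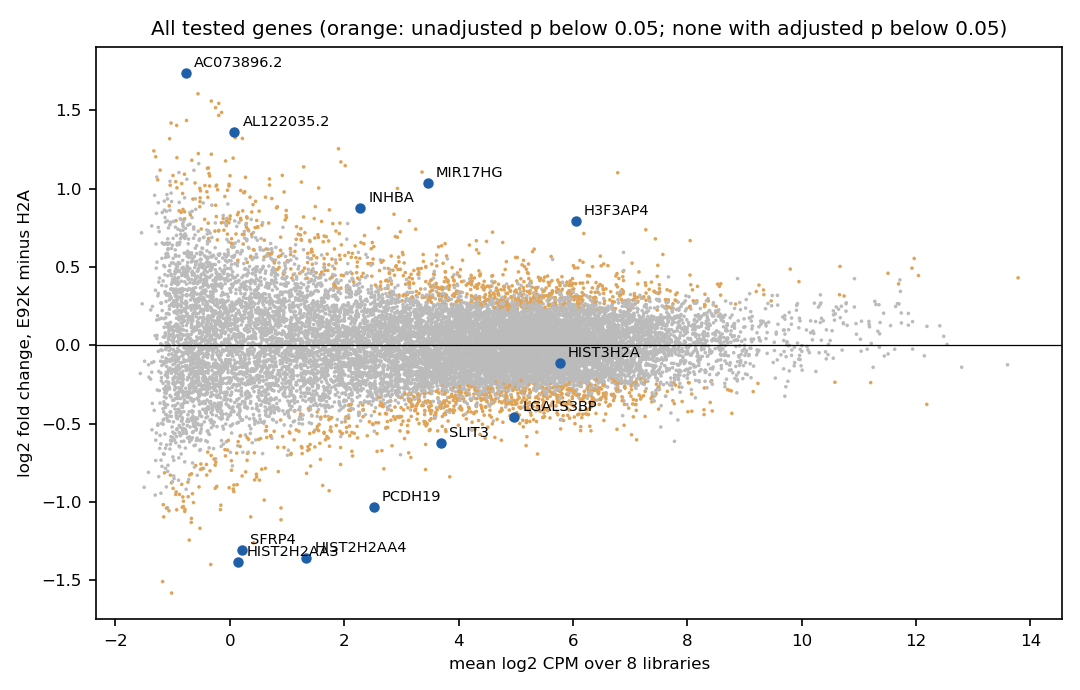
Each point is 1 of 16610 tested genes, with mean log2 CPM over the 8 libraries on the horizontal axis and the log2 fold change, E92K minus H2A, on the vertical axis. Genes at an unadjusted p below 0.05 are orange, genes named in the text are blue, and no gene has an adjusted p below 0.05.

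The H2A genes with the lowest E92K values relative to wild type were the copies HIST2H2AA4 and HIST2H2AA3. HIST2H2AA4 (ENSG00000272196, chromosome 1, 149851061 to 149851624, plus strand) had 4.67, 4.15, 4.36 and 2.94 CPM in the H2A libraries and 0.978, 1.69, 2.19 and 1.4 CPM in the E92K libraries. Every E92K library was below every H2A library. The means were 4.03 ± 0.758 and 1.57 ± 0.511 CPM (SD, n = 4 each), from 76 to 120 counts and 23 to 51 counts per library. The log2 fold change was -1.36 ± 0.24 (SE), with an adjusted p of 0.342 by edgeR and 0.000651 by DESeq2, and over 23 other settings the adjusted p ran from 1.49e-05 to 0.801. Leaving out E92K replicate 4 gave -1.31 ± 0.26 (SE; edgeR adjusted p = 0.599).

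HIST2H2AA3 (ENSG00000203812, chromosome 1, 149842188 to 149842736, minus strand) had 2.3, 1.4, 2.01 and 1.12 CPM in the H2A libraries and 0.553, 0.787, 0.775 and 0.467 CPM in the E92K libraries. Again the groups did not overlap, and the log2 fold change was -1.38 ± 0.31 (SE; edgeR adjusted p = 0.482). The coding sequences of the copies match at 390 of 390 bases, so how their reads were split between them is uncertain. Summed over both copies, the values were 6.96, 5.55, 6.37 and 4.06 CPM in H2A cells and 1.53, 2.48, 2.97 and 1.87 CPM in E92K cells. The mean sum was 5.74 ± 1.26 against 2.21 ± 0.639 CPM (SD, n = 4 each), a ratio of 2.59, and the groups did not overlap. Whether reads from either lentivector were assigned to one of the cell's own H2A genes was not tested.

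The RefSeq windows across the start sites of these copies, which also hold bases after the start, match at 299 of 299 bases at an offset of 1 base. The 250 bases before the start of HIST2H2AA4 (H2AC19 in RefSeq, GRCh38.p14, chr1:149850811-149851060, plus strand) are shown because both copies share them, save that the first base lies outside the compared stretch. The letters CCAAT or ATTGG and TATAAA are in capitals.
HIST2H2AA4 promoter: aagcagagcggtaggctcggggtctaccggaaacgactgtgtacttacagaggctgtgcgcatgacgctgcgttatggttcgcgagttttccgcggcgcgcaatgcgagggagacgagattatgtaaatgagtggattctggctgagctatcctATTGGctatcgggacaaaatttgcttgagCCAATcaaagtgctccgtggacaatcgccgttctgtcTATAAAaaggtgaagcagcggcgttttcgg
The window holds the CCAAT letters at 96 and 67 bases and TATAAA at 30 bases before the start, searched on both strands. Of 35116 RefSeq windows of the same length, 32.0% hold CCAAT or ATTGG and 10.7% hold TATAAA or TTTATA.

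The other tested replication-dependent H2A genes had overlapping values in the E92K and H2A libraries. Of 17 in the list, 9 passed the filter on low counts, 10 were under 1 CPM in all 8 libraries, and the median log2 fold change of the tested genes was -0.11, beside 0.0052 over all genes, and, leaving out 1 library each, ran from -0.1875 without E92K replicate 4 to -0.0462 without H2A replicate 3. On a per-length scale (TPM), HIST3H2A was the most abundant of those tested, at 200 ± 18.6 in H2A and 169 ± 23.2 in E92K cells (SD, n = 4 each), whereas HIST2H2AA4 was at 22.5 ± 5.0 and 8.14 ± 3.24. HIST3H2A had 51.2, 55.3, 66.6 and 55.4 CPM in H2A cells and 60.8, 49.4, 40.3 and 60.7 CPM in E92K cells. These ranges overlap, and the log2 fold change was -0.11 ± 0.14 (SE; edgeR adjusted p = 0.77). HIST2H2AC, which lies in the same cluster on chromosome 1 as the HIST2H2AA copies, had 2.45, 3.81, 4.11 and 3.32 CPM in H2A cells and 2.47, 3.15, 2.19 and 4.06 CPM in E92K cells, again overlapping (log2 fold change -0.21 ± 0.23, SE).

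On chromosome 6, HIST1H2AC had 3.89, 4.33, 4.95 and 4.52 CPM in H2A cells and 4.64, 4.56, 3.66 and 3.6 CPM in E92K cells, with a log2 fold change of -0.10 ± 0.16 (SE). HIST1H2AG was at 0.03 ± 0.23 (SE), HIST1H2AI at 0.01 ± 0.34, HIST1H2AM at 0.16 ± 0.42 and HIST1H2AL at -0.73 ± 0.38 on the same scale, with overlapping groups for each, and the sign of HIST1H2AC, HIST1H2AG, HIST1H2AI and HIST1H2AM turned under at least 1 other setting, HIST1H2AG and HIST1H2AI under library size scaling among them. HIST1H2AI, HIST1H2AL and HIST1H2AM had 5 to 30 counts per library, so only large differences could be seen. Summed over the 17 genes, the level was 75.2 ± 8.03 CPM in H2A cells and 66.2 ± 10.4 CPM in E92K cells (SD, n = 4 each), with overlapping ranges of 69.7 to 87.0 and 52.6 to 74.6. Among the other replication-dependent histones, 21 of 49 were tested, and the median log2 fold change was -0.06. None of them had an unadjusted p below 0.05, beside 10.1% of all genes.

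PCDH19 encodes protocadherin 19, a cell surface protein of calcium-dependent adhesion. PCDH19 (ENSG00000165194, chromosome X, 100291644 to 100410273, minus strand) had 8.91, 9.5, 7.0 and 7.23 CPM in H2A cells and 4.51, 4.25, 4.43 and 2.75 CPM in E92K cells. All 4 E92K libraries were below all 4 H2A libraries, with E92K replicate 4 the lowest. The means were 8.16 ± 1.23 and 3.99 ± 0.828 CPM (SD, n = 4 each), and the log2 fold change was -1.03 ± 0.18 (SE), with an adjusted p of 0.342 by edgeR and 0.000651 by DESeq2. The adjusted p over 23 other settings ran from 2.35e-05 to 0.801, and the log2 fold change from -1.1 to -0.729. Leaving out E92K replicate 4, it was -0.89 ± 0.16 (SE; edgeR adjusted p = 0.39).

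Of the list of protocadherins outside the gene clusters, which holds PCDH19 and the related cadherins DCHS1 and CELSR2, 20 of 25 were tested, and the median log2 fold change, PCDH19 included, was -0.16. Of those 20, 6 had an unadjusted p below 0.05 lower in E92K cells and 0 higher, beside 5.04% lower and 5.09% higher among all genes. CELSR2, a cadherin of planar cell polarity, had 57.6, 53.8, 42.9 and 30.0 CPM in H2A cells and 28.5, 27.9, 35.3 and 26.6 CPM in E92K cells. H2A replicate 4 lay within the E92K range for this gene (log2 fold change -0.64 ± 0.17, SE). DCHS1 had 10.6, 9.04, 7.42 and 5.1 CPM against 4.25, 5.31, 5.85 and 4.76 CPM, again with H2A replicate 4 among the E92K libraries. PCDH10 had 41.5, 47.0, 37.8 and 32.4 CPM in H2A cells and 34.7, 36.0, 28.6 and 20.8 CPM in E92K cells. Of 53 clustered protocadherins, 6 passed the filter on low counts; PCDHGC3 had 23.3, 23.6, 18.6 and 16.1 CPM in H2A cells and 14.1, 14.2, 13.2 and 4.02 CPM in E92K cells, the last in replicate 4.

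SLIT3 encodes a secreted ligand of the ROBO receptors, known for guiding axons and migrating cells. SLIT3 (ENSG00000184347, chromosome 5, 168661733 to 169301129, minus strand) had 15.6, 16.2, 17.4 and 14.8 CPM in H2A cells and 12.1, 10.1, 10.3 and 9.15 CPM in E92K cells. The groups did not overlap, and the spread within each was small: the means were 16 ± 1.09 and 10.4 ± 1.22 CPM (SD, n = 4 each). The log2 fold change was -0.62 ± 0.13 (SE), with an adjusted p of 0.482 by edgeR and 0.0225 by DESeq2, and from 0.0125 to 0.897 over 23 other settings. With E92K replicate 4 left out it was -0.57 ± 0.12 (SE; edgeR adjusted p = 0.607). Among the 12 tested genes of the SLIT and ROBO list, SLIT3 alone had an unadjusted p below 0.05, beside 5.04% lower and 5.09% higher of all genes. The median log2 fold change of the list was -0.10. It was -0.0044 without H2A replicate 1, -0.0591 without E92K replicate 4 and -0.0172 with the mitochondrial share as a covariate, a setting chosen after seeing the data. ROBO1, a receptor for SLIT ligands, had 99.5, 98.4, 82.2 and 72.3 CPM in H2A cells and 83.5, 84.8, 78.4 and 61.2 CPM in E92K cells, and SLIT1 had 6.69, 6.18, 5.66 and 4.52 against 4.81, 5.23, 4.04 and 3.83 CPM, both with overlapping groups.

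MIR17HG is the host transcript of the miR-17-92 cluster of microRNAs, known for promoting proliferation and for activation by MYC. MIR17HG (ENSG00000215417, chromosome 13, 91347820 to 91354579, plus strand) had 5.91, 9.01, 8.47 and 7.42 CPM in H2A cells and 12.5, 17.2, 17.2 and 16.4 CPM in E92K cells. Every E92K library was above every H2A library, and replicate 1 was the lowest in both groups. The means were 7.7 ± 1.36 and 15.8 ± 2.27 CPM (SD, n = 4 each), and the log2 fold change was 1.04 ± 0.16 (SE), with an adjusted p of 0.175 by edgeR and 1.06e-05 by DESeq2, and from 7.57e-07 to 0.656 over 23 other settings. With E92K replicate 4 left out it was 1.02 ± 0.16 (SE; edgeR adjusted p = 0.332). MYC itself had 273, 259, 236 and 173 CPM in H2A cells and 226, 207, 155 and 67.4 CPM in E92K cells, the last in replicate 4, with overlapping groups (log2 fold change -0.52 ± 0.27, SE; edgeR adjusted p = 0.512).

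The 6 microRNAs of MIR17HG are shown, with the seed (bases 2 to 8) in capitals, because they are the products of the transcript with the smallest adjusted p. They come from RefSeq (GRCh38.p14) and fall into 4 seeds: miR-17-5p and miR-20a-5p share 1, miR-19a-3p and miR-19b-3p share another, and miR-18a-5p and miR-92a-3p have their own.
miR-17-5p: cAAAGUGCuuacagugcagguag
miR-20a-5p: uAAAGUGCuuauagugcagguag
miR-18a-5p: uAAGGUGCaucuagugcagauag
miR-19a-3p: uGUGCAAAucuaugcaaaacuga
miR-19b-3p: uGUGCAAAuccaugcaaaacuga
miR-92a-3p: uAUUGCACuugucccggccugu
Their mature levels were not measured here.

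Further genes followed with an edgeR adjusted p of 0.482. Many genes tie at that value, among them ACBD4 at an unadjusted edgeR p of 0.029, so it does not set these genes apart. Among those higher in E92K cells, INHBA, which encodes the beta A subunit of activin and inhibin, had 3.66, 4.33, 3.73 and 2.71 CPM in H2A cells and 4.21, 8.7, 6.33 and 7.28 CPM in E92K cells, so that E92K replicate 1 lay within the H2A range (log2 fold change 0.88 ± 0.22, SE; edgeR adjusted p = 0.482). H3F3AP4, a processed pseudogene of the histone H3.3 gene H3F3A, had 42.9, 40.8, 51.3 and 70 CPM against 85.1, 80.2, 68.3 and 122 CPM. H3F3AP4 can share reads with its parent gene, so its level is uncertain; H3F3A itself had 308, 312, 337 and 378 CPM against 418, 413, 357 and 545 CPM (log2 fold change 0.38 ± 0.13, SE), with E92K replicate 4 the highest for both genes.

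The antisense genes AL122035.2 and AC073896.2 had at most 2.01 CPM in any of the 8 libraries. AL122035.2 had 0.506, 0.768, 0.545 and 0.619 CPM in H2A cells and 1.11, 1.38, 1.85 and 2.01 CPM in E92K cells. AC073896.2 had 0.195, 0.314, 0.293 and 0.309 CPM against 0.723, 0.708, 0.731 and 1.63 CPM. The groups did not overlap for either gene, but the strand setting of the counting is not given in the sources used here, so reads of an antisense gene and of its partner cannot be told apart.

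Among genes lower in E92K cells, LGALS3BP, a secreted protein that binds galectins, had 38.0, 34.7, 36.3 and 37.5 CPM in H2A cells and 23.7, 25.3, 26.7 and 31.1 CPM in E92K cells. The groups did not overlap (log2 fold change -0.46 ± 0.11, SE; edgeR adjusted p = 0.482), and without E92K replicate 4, the highest of the E92K libraries, it was -0.54 ± 0.10 (SE; edgeR adjusted p = 0.39). SFRP4, a secreted protein of the frizzled-related family that binds Wnt ligands, had 0.895, 2.02, 1.97 and 2.09 CPM against 0.766, 0.826, 0.688 and 0.514 CPM. H2A replicate 1 was close to the E92K libraries for SFRP4, and it was also the lowest H2A library for MGP.

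**Figure D3:**
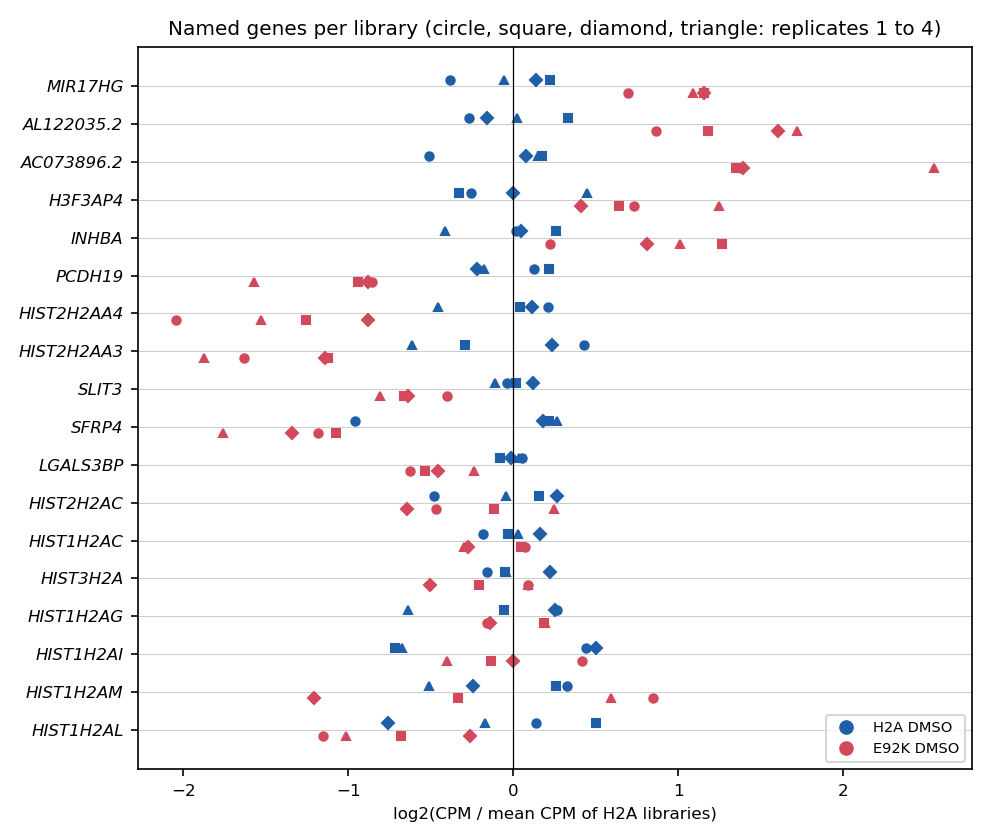
CPM of each named gene in each library as log2 of its ratio to the mean of the H2A libraries, with blue for H2A, red for E92K and the 4 symbols for replicates 1 to 4. For MIR17HG the red points lie right of the blue, for PCDH19, HIST2H2AA4, HIST2H2AA3 and SLIT3 left of them, and for the other H2A genes the colours mix.

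Guidance, matrix and surface receptor genes were mostly a little lower in E92K cells, and none of their members passed the adjusted test in edgeR. Of 57 tested axon guidance genes outside the SLIT and ROBO list, 49 had a negative log2 fold change, beside 49.2% of all genes; the median was -0.19, and 14 had an unadjusted p below 0.05 lower in E92K cells and 0 higher, beside 5.04% lower and 5.09% higher of all genes. Without E92K replicate 4 the median was -0.19 with 13 lower, and with the GC trend of each library removed, a setting also chosen after seeing the data, it was -0.13. PLXNA2, a semaphorin co-receptor, had 11.8, 10.4, 9.89 and 8.85 CPM in H2A cells and 7.4, 6.37, 8.26 and 5.04 CPM in E92K cells, without overlap. PLXNB2, another plexin, had 184, 166, 153 and 124 CPM against 114, 111, 126 and 106 CPM, where H2A replicate 4 fell among the E92K libraries. EPHB4, a receptor for ephrin-B2, had 91.3, 81.4, 81.6 and 73.5 CPM against 68.7, 59.7, 72.8 and 55.6 CPM. The mean log2 CPM of the 57 genes was 3.72, 3.74, 3.63 and 3.50 in the H2A libraries and 3.45, 3.38, 3.55 and 3.36 in the E92K libraries, so that H2A replicate 4 was below E92K replicate 3.

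Laminins, integrins and other matrix genes had a median log2 fold change of -0.20, with 10 of 40 at an unadjusted p below 0.05 lower in E92K cells and 0 higher, beside 5.04% and 5.09% of all genes. The median was -0.13 without E92K replicate 4 and -0.069 with the mitochondrial share as a covariate. AGRN, a heparan sulfate proteoglycan of basement membranes, had 162, 149, 130 and 91.1 CPM in H2A cells and 92.2, 93.8, 101 and 80.7 CPM in E92K cells. NID2, which links laminin and collagen networks, had 59.2, 54.5, 49.1 and 39.9 CPM against 35.9, 39.3, 38.3 and 24.6 CPM. For AGRN, H2A replicate 4 lay within the E92K range, and for NID2 it lay just above it. Collagens had a median of -0.10, with 8 of 35 lower and 1 higher, but the median was -0.0094 without H2A replicate 1 and -0.0388 with the GC trend removed. COL12A1 had 6.19, 5.8, 5.83 and 4.99 CPM against 4.04, 3.11, 4.17 and 3.83 CPM, and COL15A1 had 0.973, 0.489, 0.419 and 0.116 CPM against 1.83, 1.1, 1.98 and 0.84 CPM. Growth factor receptors and ligands had a median of -0.21 (-0.15 without E92K replicate 4), with 7 of 39 lower (5.04% of all genes) and 0 higher. Without E92K replicate 4, 2 of 39 were lower, near the 4.39% of all genes in that fit, and 0 were higher. FGFR4, a receptor for fibroblast growth factors, had 48.9, 50, 47.6 and 43.6 CPM against 38.4, 33.8, 40.4 and 34.6 CPM.

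Wnt and Notch genes had a median of -0.11, with 6 of 42 at an unadjusted p below 0.05 lower (5.04% of all genes) and 1, the Wnt inhibitor gene DKK1, higher. DKK1 had 1.83, 1.92, 2.01 and 2.2 CPM in H2A cells and 2.76, 2.95, 2.41 and 2.94 CPM in E92K cells. NOTCH3, a Notch receptor, had 103, 94.3, 79.1 and 65.8 CPM in H2A cells and 62.7, 58.0, 64.1 and 50 CPM in E92K cells, and its ligand gene DLL1 had 17.9, 18.2, 16.4 and 14.2 CPM against 10.2, 11.9, 13.7 and 11.9 CPM. Neither gene's groups overlapped, and H2A replicate 4 was the H2A library nearest to the E92K ones for both. Of 34 glycolysis and hypoxia genes, 30 had a negative log2 fold change, beside 49.2% of all genes; the median was -0.12, or -0.0659 with the mitochondrial share as a covariate, with 7 at an unadjusted p below 0.05 lower (5.04% of all genes) and 0 higher. SLC2A1, the glucose transporter GLUT1, had 95.5, 96.7, 110 and 78.7 CPM against 75.6, 82.8, 62.0 and 46.3 CPM. E92K replicate 4 had the lowest mean log2 CPM of this list, 6.37, beside 6.59 to 6.81 in the other E92K libraries and 6.64 to 6.90 in the H2A libraries.

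Positive medians were found for mitochondrial transcripts, the respiratory chain, ribosomal proteins, mitosis and MYC targets, but they moved with the setting, and 5.09% of all genes had an unadjusted p below 0.05 higher in E92K cells. The 13 mitochondrial mRNAs had a median log2 fold change of 0.43, with 9 at an unadjusted p below 0.05 higher in E92K cells. Without E92K replicate 4 it was 0.16 with 2 higher. With the mitochondrial share as a covariate it was 0.0228, but that share counts these same transcripts, so this value tells nothing about them. MT-CO3, a subunit of cytochrome oxidase, had 3410, 3030, 3170 and 3910 CPM in H2A cells and 4050, 3780, 4520 and 7510 CPM in E92K cells, so the highest value was again that of replicate 4. Nuclear genes of the respiratory chain had a median of 0.16 (0.08 without E92K replicate 4), with 6 of 60 higher and 0 lower, and 1 higher without that replicate, and the median was 0.0317 on TPM. ATP5PO, a subunit of ATP synthase, had 127, 142, 160 and 178 CPM against 222, 228, 159 and 256 CPM, with E92K replicate 3 among the H2A libraries. Ribosomal protein genes had a median of 0.15 (0.05 without E92K replicate 4), with 2 of 79 higher, a share below that of all genes, and 0 without that replicate; the median was 0.0119 on TPM, 0.0575 without H2A replicate 1 and 0.0217 with the mitochondrial share as a covariate.

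Of 40 mitosis genes, 6 had an unadjusted p below 0.05 higher in E92K cells and 0 lower, with a median of 0.07 (0.12 without E92K replicate 4, with 5 higher), beside 5.09% higher of all genes. With the GC trend removed the median was 0.015. KIF20B, a kinesin of cell division, had 44.1, 41.8, 43.7 and 47.4 CPM in H2A cells and 54.6, 55.6, 54.4 and 60.1 CPM in E92K cells, and CENPE, a kinetochore kinesin, had 38.2, 40.0, 38.3 and 41.6 against 45.7, 49.6, 49.8 and 55.8 CPM. Neither gene's groups overlapped. The median of the mitosis list ran from -0.051 to 0.161 over 23 other settings, negative only on TPM, a scale that moved the median of all genes to -0.0976. MYC targets had a median of 0.07 with 5 of 41 higher and 0 lower. Without E92K replicate 4, 2 of 41 were higher, beside 3.65% of all genes in that fit. The median of MYC targets was 0.0029 once the mitochondrial share was a covariate, and ran from -0.0557 to 0.134, again negative only on TPM. S phase genes had 2 higher and 3 lower of 42, beside 5.09% and 5.04% of all genes, with a median of -0.01. MCM2, a helicase subunit of replication origins, had 429, 369, 328 and 328 CPM against 279, 294, 300 and 221 CPM, without overlap.

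**Figure D4:**
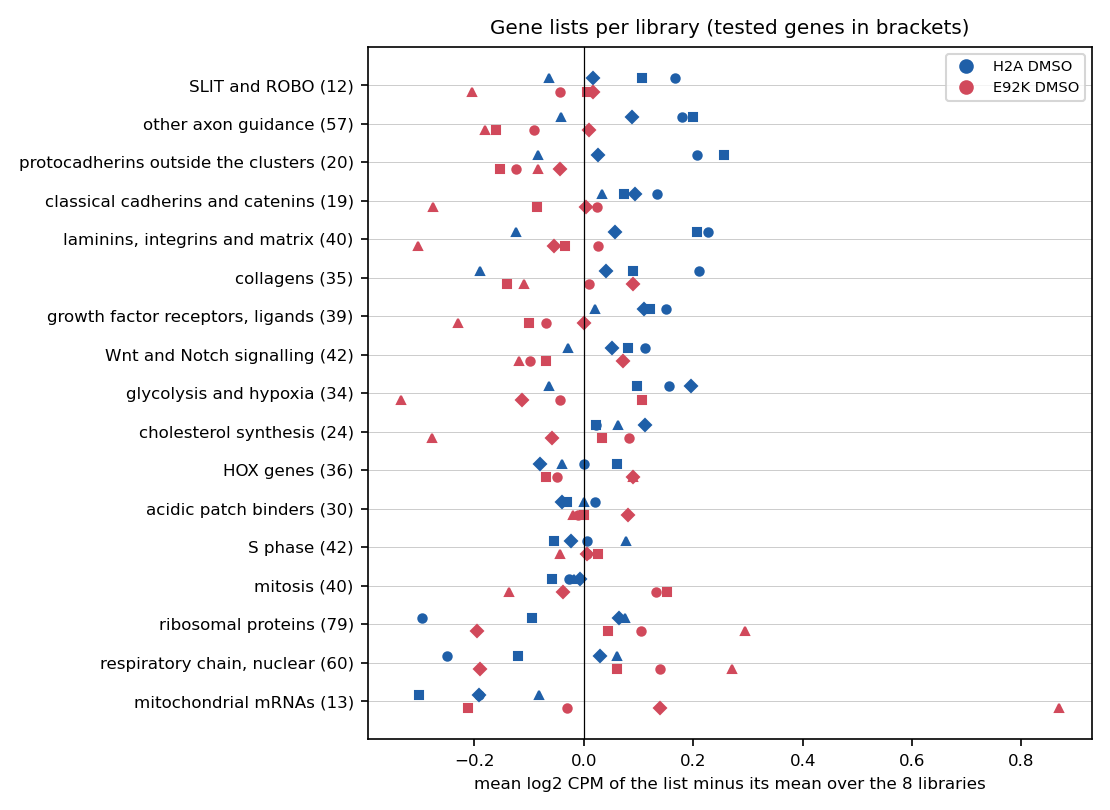
Mean log2 CPM of the tested genes of each list in each library, minus the mean of that list over the 8 libraries, with blue for H2A, red for E92K and the 4 symbols for replicates 1 to 4. Red points lie mostly left of blue in the guidance, adhesion, matrix and receptor lists, the blue triangle (H2A replicate 4) is close to the red points there, and the red triangle (E92K replicate 4) is far right for mitochondrial mRNAs.

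Counts in the lists that follow stand beside 5.09% higher and 5.04% lower among all genes at an unadjusted p below 0.05. Genes of proteins that touch the acidic patch had a median log2 fold change of 0.02, near that of all genes. Of 34 such genes, 30 were tested, and 1 had an unadjusted p below 0.05. That gene was RNF2, the catalytic subunit of the Polycomb H2A ubiquitin ligase, at 47.8, 50.4, 57.5 and 71.8 CPM in H2A cells and 68.7, 68.9, 63.2 and 81.1 CPM in E92K cells, with overlapping groups. DOT1L had 111, 94.4, 86.3 and 65.0 CPM against 61.8, 68.1, 87.3 and 68.9 CPM, also overlapping (log2 fold change -0.32 ± 0.15, SE; edgeR adjusted p = 0.498). Chromatin remodellers had a median of -0.01 with 2 higher and 2 lower of 40, and Polycomb proteins a median of -0.02 with 2 higher and 0 lower of 30. HOX genes, which Polycomb proteins are known to hold silent outside their domains, had a median of 0.06 that turned to -0.05 without E92K replicate 4 and to -0.0779 on TPM, with 1 higher and 2 lower of 36. Variant histones had a median of 0.07 with 1, H3F3A, higher of 11, and histone chaperones a median of -0.01 with 1, ATRX, higher of 24. The medians of p53 targets, heat shock genes, interferon-stimulated genes and NF-kB targets lay between 0.0011 and 0.0210, with 0 to 2 members at an unadjusted p below 0.05 in either direction.

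Genes of the kidney and neuronal lists were present in both groups of cells. Neuronal genes are not markers of the labelled origin, and a list sum can rest on a few members. Of 31 kidney developmental regulators, 27 were tested, with sums of 605 to 650 CPM in H2A and 563 to 621 CPM in E92K libraries, and 16 of 23 neuronal markers were tested, with sums of 600 to 689 and 618 to 665 CPM. Of 10 blood cell markers, 9 were under 1 CPM in all 8 libraries, 2 of them at 0. Of 11 endothelial and fibroblast markers, 7 were tested, with a median log2 fold change of -0.19 and sums of 217 to 262 and 166 to 251 CPM. Of 18 epithelial and 22 mesenchymal markers, 13 and 19 were tested, with medians of -0.12 and -0.10; over 23 other settings these ran from -0.2654 to -0.0301 and from -0.2106 to 0.0445, and the mesenchymal median was -0.0312 without E92K replicate 4.

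Signalling, stress and metabolic lists not yet described had 0 members past the adjusted threshold. Their counts at an unadjusted p below 0.05 stand beside 5.09% higher and 5.04% lower among all genes. TGF-beta and BMP genes, INHBA among them, had a median of -0.02 with 3 higher and 2 lower of 35 at an unadjusted p below 0.05. GREM1, a secreted BMP antagonist, had 2.37, 2.37, 2.43 and 2.09 CPM in H2A cells and 5.32, 4.76, 3.31 and 1.68 CPM in E92K cells, where replicate 4 was below all H2A libraries and the other E92K libraries were above them. Cholesterol synthesis genes had a median of -0.06 with 4 of 24 lower and 0 higher, and -0.02 with 2 lower and 2 higher without E92K replicate 4. SREBF2, the transcription factor of that pathway, had 366, 351, 306 and 248 CPM against 268, 257, 264 and 161 CPM, with E92K replicate 4 the lowest. Genes of the ATF4 response had a median of -0.04 with 1 of 30 higher, ASNS, the asparagine synthetase gene, at 591, 584, 550 and 567 CPM against 722, 773, 589 and 847 CPM. Classical cadherins and catenins had a median of -0.21 (-0.08 without E92K replicate 4, -0.0649 with the mitochondrial share as a covariate) with 2 of 19 lower, CDH23 and JUP. Immediate-early genes had a median of -0.03 with 2 of 30 lower, endoplasmic reticulum chaperones -0.01 with 2 of 19 lower, and imprinted genes -0.02 with 1 of 10 lower, PEG10, a retrotransposon-derived gene, at 1.44, 3.14, 3.31 and 2.55 CPM against 1.36, 1.3, 1.29 and 1.12 CPM without overlap.

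The genes at an unadjusted p below 0.05 differed in composition from the rest. Of the 846 higher genes, 73.6% were protein coding and the median GC content was 41.0%, and of the 837 lower genes 92% were protein coding with a median GC content of 58.1%, beside 82.6% and 48.7% among all tested genes. Median exonic lengths were 3610, 5540 and 4450 bases. Without E92K replicate 4 the GC medians were 39.5% and 59.9%. With the GC trend of each library removed, 1154 genes had an unadjusted p below 0.05, and 0 passed the adjusted threshold. In that setting the log2 fold change was 0.92 ± 0.16 (SE) for MIR17HG, -1.25 ± 0.22 for HIST2H2AA4, -1.02 ± 0.17 for PCDH19 and -0.57 ± 0.12 for SLIT3. With the mitochondrial share as a covariate, the log2 fold changes of these genes were 1.02, -1.33, -0.82 and -0.54 in the same order.

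Set beside the drug-treated wild-type H2A cells, with CPM scaled over all 16 libraries, E92K levels were lowest of all for few genes. E92K lay below all 12 wild-type H2A libraries for 13 genes (0.0783% of 16610) and above all 12 for 10 genes (0.0602%). JQ1 replicate 1 had a mitochondrial share of 16.5%, beside 3.04% to 3.69% in the other JQ1 libraries, and without it the counts were 39 (0.235%) and 39 (0.235%); without E92K replicate 4 they were 27 (0.163%) and 40 (0.241%). HIST2H2AA4 ran from 0.949 to 2.09 CPM in E92K cells, from 2.85 to 4.51 in H2A DMSO cells, from 2.9 to 4.15 with pinometostat and from 5.66 to 11.1 with JQ1. PCDH19 ran from 2.64 to 4.38 CPM in E92K cells, from 6.79 to 9.16 in H2A DMSO cells, from 6.5 to 10.0 with pinometostat and from 5.8, in JQ1 replicate 1, to 16.2 with JQ1. For both genes the order of the means was E92K lowest and JQ1 highest, while the DMSO and pinometostat ranges overlapped.

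SLIT3 was at 8.77 to 11.7 CPM in E92K cells and 9.57 to 10.2 CPM in cells with pinometostat, overlapping ranges, and at 14.4 to 16.9 and 14.7 to 18.8 CPM in H2A DMSO and JQ1 cells, which overlapped each other. MIR17HG was at 12.1 to 16.7 CPM in E92K cells and 10.8 to 14.4 CPM with pinometostat, again overlapping, at 5.71 to 8.69 CPM in H2A DMSO cells, and at 15, 5.03, 3.57 and 3.5 CPM in JQ1 replicates 1 to 4. These comparisons share the H2A DMSO libraries, so the values are set side by side only. Other genes with E92K below the 12 libraries and a mean of at least 2 CPM, chosen after their values were seen, included GPR50, an orphan receptor related to the melatonin receptors, at 5.95 to 12.5 CPM beside 12.6 to 27.0, and NGFR, the low-affinity neurotrophin receptor, at 1.61 to 2.02 beside 2.05 to 5.03. Those above included MEIS1, a homeobox cofactor of HOX proteins, at 16.4 to 21.1 beside 8.01 to 16. Against H2A DMSO cells alone, its log2 fold change was 0.22 ± 0.12 (SE; edgeR unadjusted p = 0.0945, adjusted p = 0.529). GPR50 and NGFR were at -0.62 ± 0.18 and -0.65 ± 0.18 (SE; edgeR adjusted p = 0.482 for each).

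**Figure D5:**
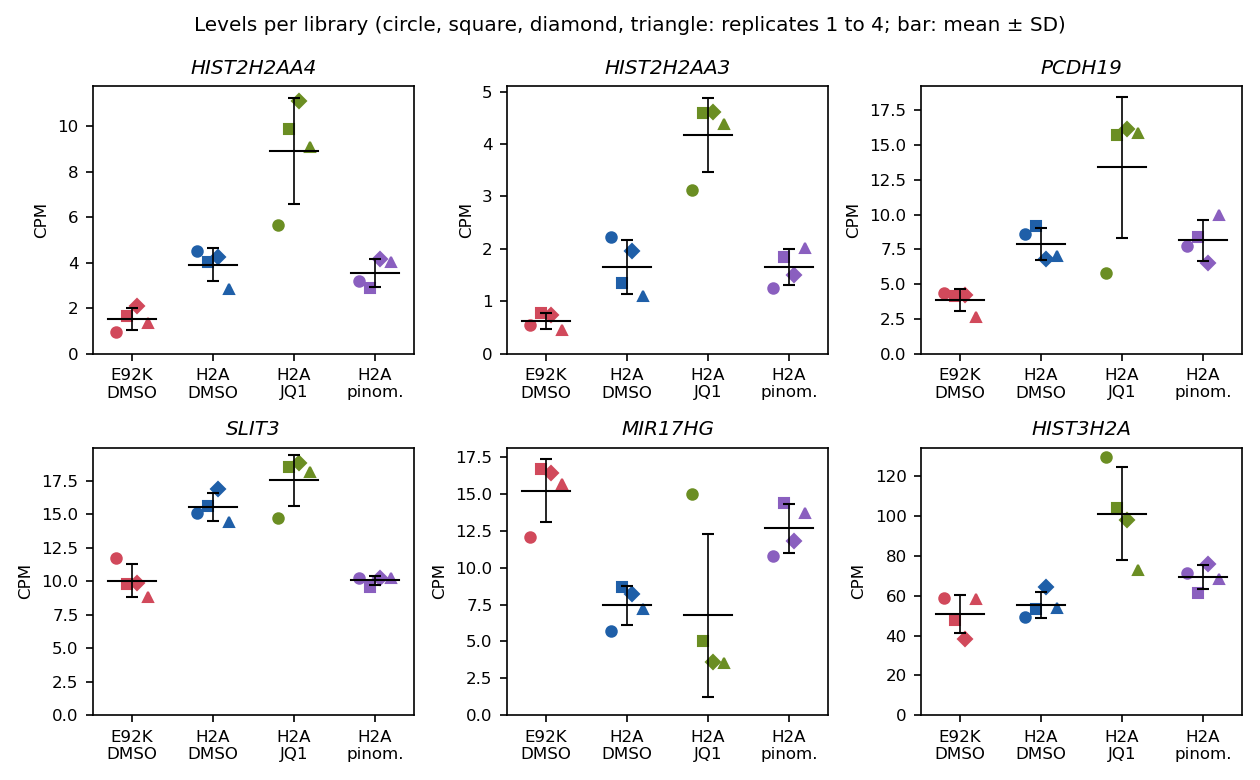
CPM per library, scaled over all 16 libraries, for E92K DMSO, H2A DMSO, H2A JQ1 and H2A pinometostat cells, with points for replicates 1 to 4 and bars for the mean ± SD. E92K is lowest for HIST2H2AA4, HIST2H2AA3 and PCDH19, level with pinometostat for SLIT3 and near it for MIR17HG, and JQ1 replicate 1 is apart from the other JQ1 libraries for PCDH19 and MIR17HG.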

How the data were processed

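Whole-number counts per gene, as deposited by the authors for each library, were the starting point; the deposited TPM values equal the counts divided by the exonic length in the files and scaled, and served for levels between genes and for 1 alternative fit. The sources used here do not name the aligner, counter, build, strand setting or library selection. Gene starts and ends match GENCODE release 29 for 96.3% of 56898 shared identifiers. The fits took the counts from the series table, which matched the library files in 920000 of 920000 cells.

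Groups came from the sample titles and the genotype labels. Genes were kept by filterByExpr (minimum count 10, minimum total 15), scaled by TMM and tested with edgeR 4.0.16 (R 4.3.3) quasi-likelihood fits on the 8 libraries, with two-sided p-values adjusted by the Benjamini-Hochberg method across every gene tested; calls needed an adjusted p below 0.05. The standard error is the size of the log2 fold change divided by the square root of F. CPM are TMM-scaled, and log2 CPM uses a prior count of 2. DESeq2 1.42.0 and limma 3.58.1 were alternatives, and log2(TPM + 1) used a pseudocount of 1, which understates the change of low genes. The fit was tested on simulated counts without an outlying library or a GC trend, so that test does not cover such differences among the real libraries. The replicate pair that agreed best still differed by more than sampling noise (chi-square per degree of freedom 4.78).

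The members and the 40 gene lists (1259 genes, 1255 matched, 1065 tested) were chosen with earlier results of these data known, so a list is described by counts and a median only. Named genes were HIST2H2AA4, PCDH19 and SLIT3, every tested replication-dependent H2A gene and the 6 genes with the smallest adjusted p in each direction, with ties ordered by unadjusted p, a choice made after seeing the data; the rule's parts on called genes named none. List examples were chosen after their values were seen. A gene that the rule names is not reported here.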

Additional observations from a re-analysis of the deposited data

Results flagged for a closer look

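In all, 120 sets of 4 values (a gene or a list in 1 group) were examined for 1 library far from the other 3, and 6 had one. That is the number chance gives at about 1 in 20, and 3 of the 6 were E92K replicate 4. PCDH19 was at 2.75 CPM in E92K replicate 4, beside 4.25 to 4.51 CPM in the other E92K libraries. AC073896.2 was at 1.63 CPM in the same library, beside 0.708 to 0.731. The interferon-stimulated genes had a mean log2 CPM of 2.19 there, beside 2.02 to 2.04. SFRP4 was at 0.895 CPM in H2A replicate 1, beside 1.97 to 2.09 CPM in the other H2A libraries. The replication-dependent histones other than H2A had a mean log2 CPM of 0.53 in E92K replicate 3, beside 0.8 to 0.835. The heat shock genes had a mean log2 CPM of 7.28 in H2A replicate 2, beside 7.46 to 7.48.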

How the results depend on the processing

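Of 23 other fits, 19 also called 0 genes. The count was 4 with DESeq2, 143 (78 higher, 65 lower) with no filter on low counts, 749 with library quality weights (added after seeing the data), and 0 to 1 over the fits that leave out 1 library each, the 1 being without H2A replicate 1; the cause was not tested. With an adjusted p below 0.01 edgeR called 0. Genes at an unadjusted p below 0.05 numbered 802 to 4476, against 1683. With the replicate number as a block the count was 0 (smallest adjusted p 0.0646). The deviations of same-numbered libraries from their group means had correlations of -0.147, -0.0373, -0.171 and 0.0712. Such values cannot show whether the numbers pair the samples, which the labels do not say. TPM moved the median of all genes to -0.0976 on the log2 scale. Leaving out 1 library each, the mitochondrial difference ran from 0.432 to 1.66 percentage points. Among named genes, signs turned for H2A genes near 0: HIST1H2AC to 0.0108 with mitochondrial share as a covariate; HIST1H2AG to -0.0147 with library size alone, -0.0513 on TPM, -0.0085 with that covariate, -0.1857 without replicate 4 of both groups and -0.0022 with library weights; HIST1H2AI to -0.0276, -0.0405 and -0.0457 with library size alone, on TPM and without replicate 4 of both groups, and -0.0005 with no filter; HIST1H2AM to -0.0601 on TPM and -0.1356 without replicate 4 of both groups. Leaving out 1 library each, HIST1H2AG ran from -0.1391 to 0.126, HIST1H2AI from -0.1802 to 0.2192 and HIST1H2AM from -0.1574 to 0.4252. The 3 thinnest H2A genes had 5 to 30 counts per library, which limits their precision. Of 920 list medians, 872 stayed within 1 SD of the list's library means. In some lists that SD exceeds the size of the median, as in the H2A list (0.144 beside -0.1138). The count therefore does not show that a median holds. The sign of the median turned under at least 1 setting in 21 of 40 lists, each with a main median of at most 0.1034 in size. The covariate, the paired removal of replicate 4, the GC correction, the robust prior and the weights were chosen after seeing the data.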
